A study of Astatotilapia calliptera with 66 samples.

Results

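The genes described here encode proteins of the blood clotting system, read out as mRNA in the liver of the cichlid fish Astatotilapia calliptera. A list of 10 symbols was looked up by exact symbol in a table of 51012 transcripts covering 29676 gene symbols, and the levels of all transcripts with a symbol were summed. The 4 genes found were fgb and fgg, which encode the beta and gamma chains of fibrinogen, f5, which encodes coagulation factor V, and serpinc1, which encodes antithrombin. Each was represented by 1 transcript. The other 6 symbols (fga, f2, f10, f13b, plg and kng1) are not analysed here. The genes found therefore belong to clot formation and its inhibition, and none of them is an enzyme of fibrinolysis.

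The study compared wild-caught adult males of 3 populations, or ecomorphs, of this species. Liver RNA was sequenced from 4 riverine fish of the Mbaka River, 4 littoral fish from the shallow water of Lake Masoko and 5 benthic fish from the deep water of the same crater lake, and no fish carried a treatment or an engineered allele. Expression was given as TPM, a relative transcript abundance corrected for transcript length with the same total in each liver, so levels of different genes can be set side by side. Library depth cannot be read from TPM, and a lower TPM cannot distinguish less RNA per hepatocyte from fewer hepatocytes in the piece of liver.

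Blood clotting is a cascade of plasma proteases that ends with thrombin cutting fibrinogen into fibrin. Factor V, once activated, is the cofactor with which factor Xa turns prothrombin into thrombin, and antithrombin is the plasma inhibitor of thrombin and factor Xa. In vertebrates, hepatocytes make most of these proteins and release them into blood. Fibrinogen is a hexamer built from pairs of 3 different chains, and in mammals its genes are acute-phase genes that respond to interleukin-6 through STAT3.

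In the gene table of another assembly of this species, fAstCal1.2, used only for names and neighbours, fgb was separated from fga by 1 gene, whereas fgg lay on a different chromosome between lrata and plrg1. The gene f5 stood between rgcc and slc35a5, and serpinc1 between zbtb37 and stil. All 4 symbols were found in that table.

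Several facts of the libraries bear on the values. Of the livers, 5 were sequenced in one run (all 4 riverine fish and littoral 1) and 8 in another (the remaining 3 littoral and all 5 benthic fish), so a difference between riverine and benthic livers cannot be told apart from the run. Of 30 hepatocyte markers, 8 were found and none was at 0 in every liver. Their summed level was 10563 to 19578 TPM in riverine, 10706 to 15567 in littoral and 8128 to 16071 in benthic livers. Among them tf (transferrin) averaged 6988 TPM and rbp4 (retinol-binding protein) 5249 TPM, while cps1 (carbamoyl phosphate synthetase) averaged 0.11 TPM. The sum was mostly tf and rbp4 and does not show tat, which averaged 587 TPM in riverine, 22.8 in littoral and 220 in benthic livers. Its log2 change by limma was -4.71 from riverine to littoral (adjusted p = 1.1e-05) and -1.52 from riverine to benthic livers (0.014). From littoral to benthic livers it was 3.19 (0.0013). The other 7 were not called in any comparison. Of 4 kidney markers found, littoral 2 held cdh17 at 85.2 TPM and slc12a1 at 75.2 TPM. Its lrp2 (0.12 TPM) and nphs1 (0.02 TPM) lay within the range of the other livers. Littoral 3 held the islet hormone genes ins at 2081 TPM and gcg at 738 TPM. Another pancreas gene, cpb1, ran from 134 to 2068 TPM, highest in riverine 3 (2068 TPM), with 1620 TPM in littoral 2. Benthic 5 had the highest sum of 8 leukocyte markers, 1831 TPM against 105 to 798 TPM in the other livers.

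The fibrinogen chain genes were among the most abundant mRNAs of every liver. Over the 13 livers fgg averaged 11315 ± 3073 TPM (SD, n = 13) and fgb averaged 9903 ± 2721 TPM (SD, n = 13). By TPM, fgg ranked between 6 and 22 among all gene symbols and fgb between 7 and 24. Together these 2 genes took 1.35% to 2.96% of all TPM in a liver, with a mean of 2.12% ± 0.56 (SD, n = 13). Antithrombin was the next in level, with serpinc1 at 808 ± 210.1 TPM (SD, n = 13) and ranks of 160 to 255. Factor V was the lowest, with f5 at 78.9 ± 24.0 TPM (SD, n = 13) and ranks of 667 to 1519. This order, both fibrinogen chains above serpinc1 and serpinc1 above f5, held in 13 of 13 livers, while the spreads of fgg and fgb overlapped.

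For fgg, the gamma chain, the riverine livers had 11591, 13934, 8454 and 11740 TPM. The littoral livers had 7823, 14826, 13971 and 15158 TPM. The benthic livers had 13877, 10550, 11788, 7586 and 5801 TPM. The lowest littoral liver, littoral 1, lay below all riverine values, the lowest value of all was benthic 5, and all 3 populations overlapped.

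For fgb, the beta chain, the riverine livers had 10440, 11108, 6562 and 9516 TPM. The littoral livers had 5683, 9696, 13222 and 14471 TPM. The benthic livers had 13691, 9237, 10009, 7242 and 7863 TPM. Both the highest and the lowest liver were littoral, so the littoral range contained every riverine and benthic value.

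For serpinc1, whose product holds thrombin in check, the riverine livers had 783, 1185, 630 and 864 TPM. The littoral livers had 572, 701, 1045 and 894 TPM. The benthic livers had 1010, 755, 975, 617 and 472 TPM. The highest level was in riverine 2 and the lowest in benthic 5, with the populations overlapping.

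For f5, the cofactor of prothrombin activation, the riverine livers had 75.2, 112.0, 73.6 and 72.7 TPM. The littoral livers had 57.2, 65.8, 102.7 and 106.8 TPM. The benthic livers had 111.1, 85.6, 78.5, 43.2 and 41.7 TPM. Riverine 2 stood above 3 riverine livers that lay close together, benthic 4 and benthic 5 were the lowest of all, and the populations again overlapped.

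**Figure D1:**
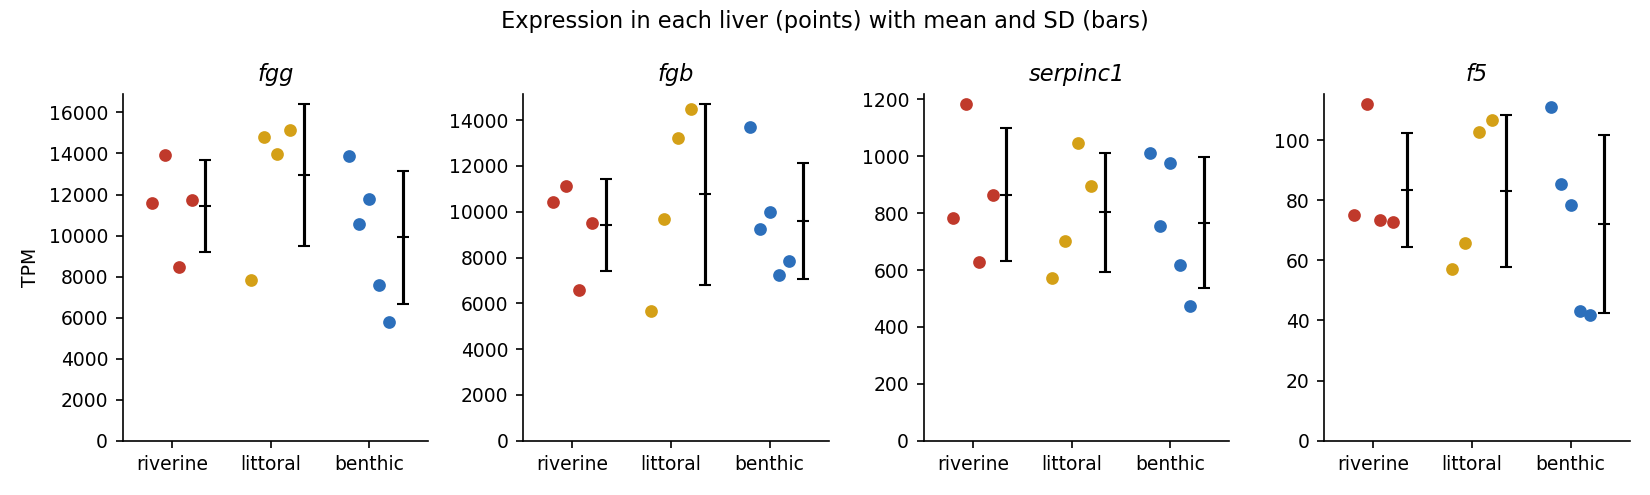
Level of fgg, fgb, serpinc1 and f5 in TPM (vertical axes, starting at 0, each with its own scale) in every riverine (4), littoral (4) and benthic (5) liver; points are livers and bars the mean with SD. In each panel the 3 populations overlap, and benthic livers range down to the lowest values of fgg (5801 TPM), serpinc1 (472 TPM) and f5 (41.7 TPM).

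The 3 pairs of populations were then compared gene by gene to ask whether these mRNAs differed with habitat. In limma fitted to all genes, none of the 4 was called different between riverine and littoral, riverine and benthic, or littoral and benthic livers. Their adjusted p-values ran from 0.55 to 0.98. The populations overlapped in 12 of the 12 comparisons of a gene between populations. Overlap was not counted over all genes, so no background share stands beside this count or beside the separated genes below. Those genes were named after being called, so their separation is not a separate result. At an unadjusted p under 0.05 the count was also 0 of 4 in each comparison. The share of all genes at that unadjusted threshold was not counted. By the adjusted p, among all 21147 genes tested, 1.46% were called between riverine and littoral, 11.2% between riverine and benthic and 0.359% between littoral and benthic livers. Among the 3662 of these averaging 10 TPM or more, the corresponding shares were 2.73%, 11.1% and 0.765%.

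The estimated differences were small relative to their intervals. From riverine to littoral livers, fgb changed by 0.14 on the log2(TPM + 0.1) scale (95% interval -0.55 to 0.82) and fgg by 0.15 (-0.52 to 0.83). In the same comparison f5 changed by -0.03 (-0.77 to 0.71) and serpinc1 by -0.11 (-0.75 to 0.53). From riverine to benthic livers the changes were 0.02 for fgb (-0.62 to 0.67) and -0.25 for fgg (-0.89 to 0.39). They were -0.29 for f5 (-0.99 to 0.41) and -0.19 for serpinc1 (-0.80 to 0.41). From littoral to benthic livers fgg had the estimate farthest from 0 of all, -0.40 (-1.04 to 0.24), which is a ratio of 0.76. There the values were -0.11 for fgb (-0.76 to 0.53), -0.26 for f5 (-0.96 to 0.44) and -0.09 for serpinc1 (-0.70 to 0.52). These intervals were 1.22 to 1.48 log2 units wide, and all of them included 0.

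The median of all genes was itself shifted, by 0.40 from riverine to littoral, 0.62 from riverine to benthic and 0.20 from littoral to benthic livers. The median over the 4 coagulation genes was 0.05, -0.22 and -0.19 in the same order. Relative to the median gene, fgb changed by -0.59, fgg by -0.87, f5 by -0.91 and serpinc1 by -0.81 from riverine to benthic livers. With the run as a covariate the all-gene medians were -0.16, -0.11 and 0.02 in the same order. Within the run of the benthic fish alone, the littoral to benthic median was 0.024. The shift between populations therefore cannot be told apart from the run. Without the covariate, the median shift was smaller among the 3662 genes averaging 10 TPM or more, which include these 4. It was 0.14, 0.17 and 0.02 in the 3 comparisons. Relative to those genes the riverine to benthic changes were -0.15 (fgb), -0.42 (fgg), -0.46 (f5) and -0.36 (serpinc1). When TPM were divided by a median-of-ratios factor for each liver, the all-gene median moved to 0.12 in that comparison. The 4 genes then changed by -0.58 (fgb), -0.85 (fgg), -0.90 (f5) and -0.80 (serpinc1), so that the sign of fgb was turned by the scaling. Under this scaling f5 had an unadjusted p of 0.034 and serpinc1 of 0.046, and their adjusted p-values from limma were 0.14 and 0.16, where 4.96% of all genes were called lower. The sizes for the riverine to benthic comparison depended on the scaling, while fgg, f5 and serpinc1 were negative and the number of the 4 genes called was 0 under both.

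**Figure D2:**
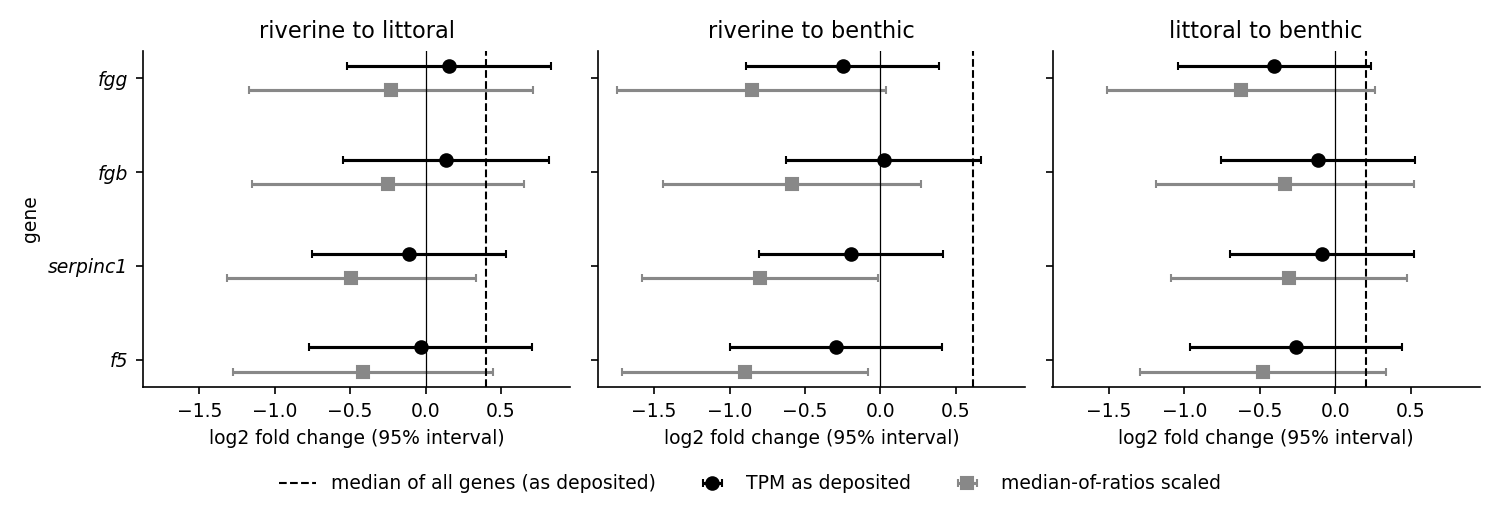
Log2 fold change (horizontal axis) of fgg, fgb, serpinc1 and f5 in the 3 comparisons of populations, second minus first; circles are TPM as deposited, squares TPM after median-of-ratios scaling, bars the 95% intervals of limma, and the dashed line the median of all genes as deposited (0.40, 0.62 and 0.20). All intervals for TPM as deposited include 0, and the squares lie to the left of the circles. After scaling, the riverine to benthic intervals of f5 (-1.71 to -0.080) and serpinc1 (-1.58 to -0.018) lie below 0. Their adjusted p-values by limma are 0.14 and 0.16.

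The 4 genes rose and fell together from liver to liver. Pearson's r between log2 levels over the 13 livers was 0.82 for fgb with fgg, 0.77 for fgb with f5 and 0.79 for fgb with serpinc1. It was 0.84 for fgg with f5, 0.85 for fgg with serpinc1 and 0.88 for f5 with serpinc1. Spearman's rho lay between 0.69 (fgg with f5) and 0.90 (f5 with serpinc1). With deviations from the population means r was 0.80 to 0.90, so the relation was also seen within populations. Without the 2 livers farthest from the median of the first gene, r was 0.66 to 0.84. These correlations describe points that share a library and a piece of tissue, since TPM of all genes in a liver sum to the same total, and no test is attached to them.

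In 5 of 13 livers all 4 genes were above their own means, in 4 livers all were below, and in 4 livers they were split. The livers with all 4 above were riverine 2, littoral 3, littoral 4, benthic 1 and benthic 3. Those with all 4 below were riverine 3, littoral 1, benthic 4 and benthic 5. Both kinds occurred in every population. The mean deviation of the 4 genes ran from -0.69 in benthic 5 to 0.45 in benthic 1 on the log2 scale, so the benthic fish alone spanned the whole range.

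**Figure D3:**
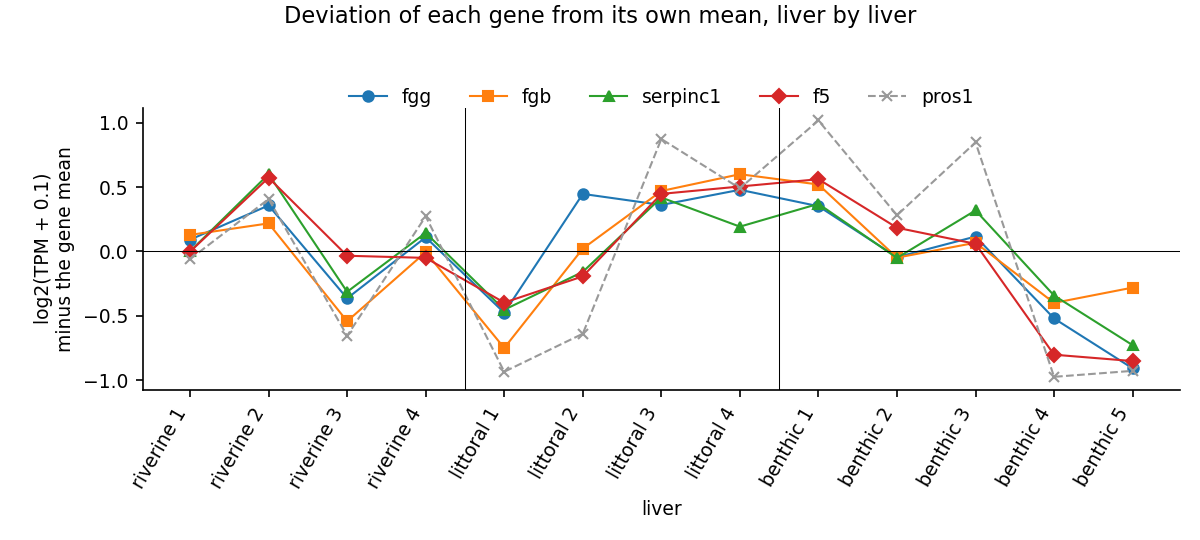
Deviation of log2(TPM + 0.1) from the mean of each gene (vertical axis) in each of the 13 livers (horizontal axis, populations separated by vertical lines) for the 4 coagulation genes and for pros1 (dashed). The lines move together, though pros1 was picked for this likeness, and the mean of the 4 genes is lowest in benthic 5 (-0.69) and highest in benthic 1 (0.45).

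Genes whose pattern over the 13 livers was most like the mean of the 4 were sought among the 3658 other genes averaging 10 TPM or more. The 5 most alike were LOC101467361 (r = 0.92, mean 6671 TPM), LOC101466573 (r = 0.91, 438 TPM), LOC101468568 (r = 0.91, 60.6 TPM), pros1 (r = 0.89, 51.9 TPM) and LOC101482341 (r = 0.88, 75.9 TPM). Protein S, encoded by pros1, is a cofactor of activated protein C, the protease that inactivates factor Va. Of the 3658 genes, 0.929% had r above 0.8, and the median r was 0.02. In riverine livers pros1 had 44.3, 61.3, 29.3 and 55.8 TPM. In littoral livers it had 24.1, 29.6, 84.7 and 64.9 TPM, and in benthic livers 93.6, 56.2, 83.2, 23.5 and 24.3 TPM. Its lowest livers were littoral 1, benthic 4 and benthic 5, all among those where the 4 coagulation genes were low. Because pros1 was picked by its likeness over these same livers, this is not a separate result.

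Other abundant clotting genes had lower r in TPM as deposited, an order that changed with scaling. Heparin cofactor II, the thrombin inhibitor encoded by serpind1, had r = 0.70 with the mean of the 4 genes, habp2 (hyaluronan-binding protein 2, a plasma protease) had r = 0.49, and proc (protein C) had r = 0.40. After median-of-ratios scaling these were 0.93, 0.85 and 0.78, while pros1 had 0.88. The hepatocyte marker itih2 had r = 0.73 and hnf4a, a master transcription factor of hepatocytes, r = 0.59. Among genes of acute-phase signalling, il6st (the receptor subunit shared by interleukin-6 family cytokines) had r = 0.35, cebpd 0.05, stat3 0.0043 and socs3 -0.38. After median-of-ratios scaling these were 0.45, 0.51, 0.04 and -0.53, and those of itih2 and hnf4a were 0.93 and 0.75.

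Because fibrinogen is assembled from its chains in fixed proportion, the ratio of fgb to fgg was examined. The level of fgg was above that of fgb in 12 of 13 livers. The ratio was 0.82 ± 0.05 in riverine (SD, n = 4), 0.82 ± 0.15 in littoral (SD, n = 4) and 1.004 ± 0.204 in benthic livers (SD, n = 5). The exception was benthic 5, with 7863 TPM of fgb and 5801 TPM of fgg, a ratio of 1.36. The ratio did not pass the test in any comparison, with two-sided exact permutation p of 0.89 between riverine and littoral, 0.056 between riverine and benthic and 0.19 between littoral and benthic livers, or 0.89, 0.17 and 0.29 after adjustment over these 3 tests. The smallest p these designs allow is 0.029 for 4 against 4 livers and 0.0079 for 4 against 5.

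**Figure D4:**
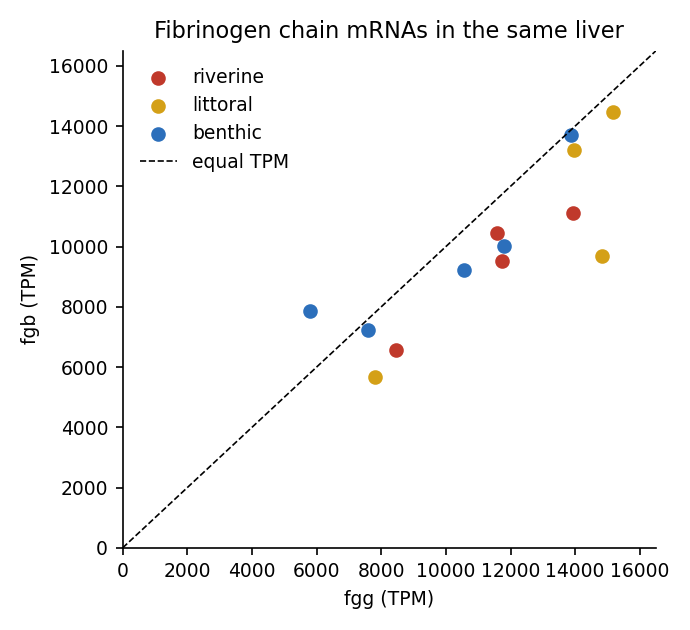
Level of fgb against fgg in TPM, 1 point for each of the 13 livers, coloured by population, with the dashed line at equal TPM; both axes start at 0. Points rise together (r = 0.82 on the log2 scale), and benthic 5 is the 1 liver above the line, at a ratio of 1.36.

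Of 57 other symbols of clotting and fibrinolysis, 14 were found and 13 passed the minimum of 0.1 TPM. The 3 most abundant were habp2 at 1750 TPM, serpind1 at 1163 TPM and proc at 247 TPM on average, and none of these was called in any comparison. From riverine to benthic livers 3 of the 13 rose, 0 fell and 10 did not pass the test, against 9.66% of all genes called higher and 1.49% called lower. By the rule of the study, which also asks for an absolute log2 change of 1.5 and 10 TPM in any liver, 1 of the 13 (tfpi2) was called, against 2.93% of all genes. Between riverine and littoral and between littoral and benthic livers 0 of 13 were called in limma. At an unadjusted p under 0.05 the counts were 1 from riverine to littoral, 8 from riverine to benthic and 5 from littoral to benthic livers. The 8 include serpind1, which was lower (-0.71, unadjusted p = 0.019 by limma). The share of all genes at that threshold was not counted, so these counts have no background. The changes differed with level, among these genes as among all genes. The 9 genes with a mean under 10 TPM had log2 changes of 0.46 to 2.65 from riverine to benthic livers, 8 of them above 1, and the 4 genes at 10 TPM or more had changes of -0.71 to 0.06. Over all genes tested, the median change was 0.71 for the 17485 under 10 TPM and 0.17 for the 3662 at or above it.

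The 3 genes that rose were tfpi2, f3 and vwf. The gene tfpi2 encodes a Kunitz-type protease inhibitor. It had 2.78, 2.08, 1.52 and 1.78 TPM in riverine and 2.51, 6.26, 3.26 and 2.86 TPM in littoral livers. It had 12.0, 6.97, 11.4, 14.8 and 13.5 TPM in benthic livers, all above every riverine and littoral liver. The share of all genes separated in this way was not counted, and tfpi2 and f3 were picked by their calls. The change from riverine to benthic was 2.45 ± 0.33 (log2, SE, adjusted p = 0.0019 by limma), and from littoral to benthic it was 1.68 ± 0.33 (adjusted p = 0.0503).

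Tissue factor, encoded by f3, starts the cascade when blood meets cells outside the vessel. It had 0.30, 0.35, 0.30 and 0.12 TPM in riverine and 0.52, 0.51, 0.58 and 0.19 TPM in littoral livers. In benthic livers it had 0.98, 2.71, 5.10, 3.17 and 0.98 TPM, again above every other liver. The change from riverine to benthic was 2.65 ± 0.51 (log2, SE, adjusted p = 0.011 by limma).

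Von Willebrand factor, encoded by vwf, carries platelets, and the nucleated thrombocytes of fish, to a damaged vessel wall. Its level stayed under 1 TPM, from 0.02 to 0.10 TPM in riverine, 0.06 to 0.45 in littoral and 0.22 to 0.98 in benthic livers. The change from riverine to benthic was 1.90 ± 0.47 (log2, SE, adjusted p = 0.025 by limma), while littoral and benthic livers overlapped. The riverine values lay under the pseudocount of 0.1 TPM, and the change of vwf was 3.02 with a pseudocount of 0.01, 0.83 with 0.5 and 0.50 with 1, where the call was lost (adjusted p = 0.054). That of f3 was 3.02, 1.8 and 1.37 with these pseudocounts and stayed called. The call of vwf was lost without riverine 1 (adjusted p = 0.059), riverine 4 (0.079) or benthic 5 (0.057). With the sequencing run as a covariate the change was 1.845 ± 0.63 for tfpi2 (log2, SE, adjusted p = 0.17), 2.99 ± 1.03 for f3 (0.17) and 0.62 ± 0.84 for vwf (0.78), with wider errors for all 3. Under quantile normalization f3 (0.096) and vwf (0.14) were no longer called.

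Markers of thrombocytes, the fish counterpart of platelets, were also examined. Of 15 listed markers 5 were found, and their summed level was 1.51 to 5.39 TPM in riverine, 1.9 to 4.31 in littoral and 9.56 to 73.2 TPM in benthic livers. None of the 5 was at 0 in every liver, and 2 of 5 (gp1bb and fermt3) rose from riverine to benthic livers, where 9.66% of all genes were called higher. The sum was mostly gp1bb, a subunit of the von Willebrand receptor, with a change of 3.02 (log2, adjusted p = 0.013 by limma). The 4 markers other than gp1bb summed to 0.67 to 1.87 TPM in riverine, 0.89 to 3.12 in littoral and 2.22 to 26.3 TPM in benthic livers. Single markers of other cells also changed from riverine to benthic livers, in both directions. The erythroid gene rhag changed by 3.33 (adjusted p = 0.012 by limma). It had 1.76 to 13.4 TPM in benthic livers, above the 0.12 to 1.27 TPM of all others. Of the 3 erythroid genes tested, gata1 went the other way, by -3.41 (adjusted p = 0.020 by limma). Its mean was 5.70 TPM in riverine and 0.32 TPM in benthic livers. Among the 3 muscle genes tested, the smooth muscle gene myh11 changed by 2.72 (adjusted p = 0.013 by limma). The changes of mb (myoglobin) and myl1 were -1.09 and 0.90 (adjusted p = 0.098 and 0.48 by limma). The sum of 4 muscle markers was 41.2 to 121 TPM in riverine, 9.27 to 15.1 in littoral and 20.7 to 73.4 TPM in benthic livers. The largest part of these sums on average was mb, with means of 69.6, 8.65 and 33.7 TPM in the same order. From riverine to littoral livers mb changed by -2.87 (adjusted p = 0.0082 by limma). The sum of leukocyte markers was 105 to 225 TPM in riverine, 126 to 514 in littoral and 157 to 1831 in benthic livers. From riverine to benthic livers 1 of these 8 markers was called higher. The sum of 5 endothelial markers was 13.03 to 45.8, 9.07 to 37.4 and 18.3 to 87.9 TPM in the same order. None of these 5 was called, and their median change from riverine to benthic was 0.28, against 0.62 for all genes. In benthic 5, lyve1 gave 53.1 of the 87.9 TPM. From littoral to benthic livers gp1bb changed by 3.53 and rhag by 3.77 (both adjusted p = 0.036 by limma). They were 1 of 5 thrombocyte and 1 of 3 erythroid markers tested, where 0.359% of all genes were called. No leukocyte, endothelial or muscle marker was called there. The part of these cells in the changes of tfpi2, f3 and vwf was not tested.

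**Figure D5:**
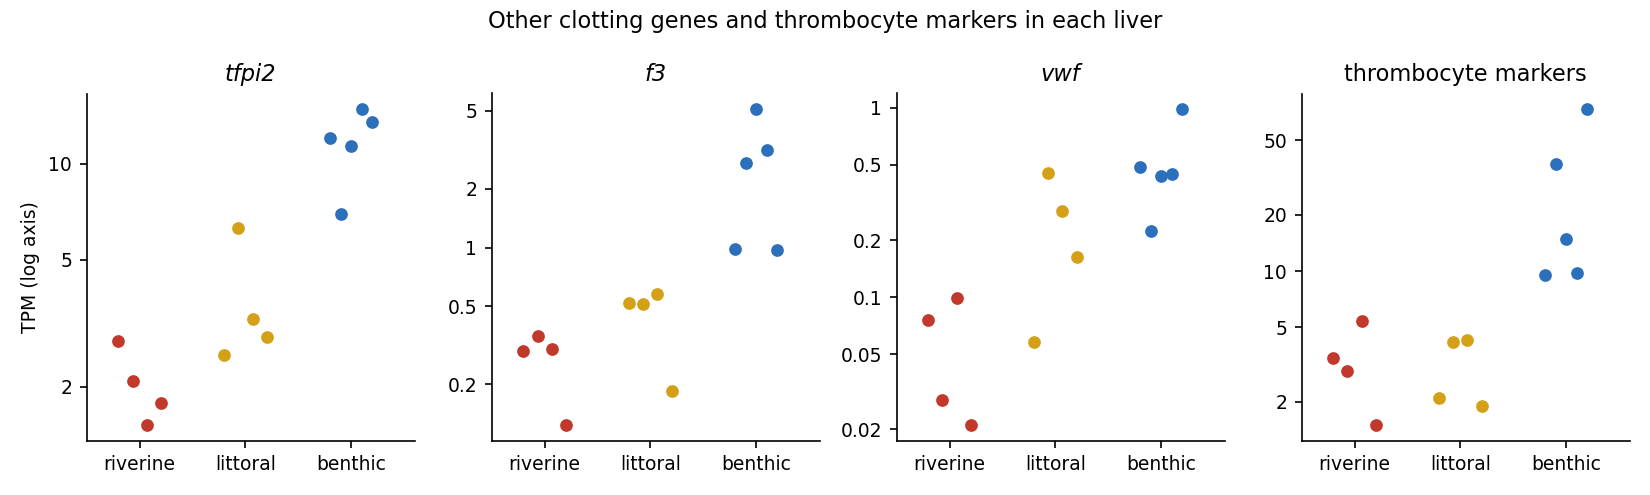
Level in TPM (vertical axes, logarithmic) of tfpi2, f3 and vwf and the summed level of 5 thrombocyte markers in every liver; points are livers, grouped as riverine (4), littoral (4) and benthic (5). For tfpi2, f3 and the thrombocyte markers (9.56 to 73.2 TPM) every benthic liver lies above every other liver, whereas vwf overlaps between littoral and benthic livers.

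On the side of fibrinolysis, the plasminogen activator genes plat and plau had mean levels of 1.45 and 0.995 TPM. Their changes from riverine to benthic livers were 1.78 and 1.8 on the log2 scale. Their adjusted p-values by limma were 0.066 and 0.12, so neither was called.

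The genes that process clotting factors were represented by 6 of 10 symbols. The most abundant were mcfd2 at 62.3 TPM and lman1 at 36.3 TPM, which form the receptor that exports factor V and factor VIII from the endoplasmic reticulum in humans, and ggcx at 29.7 TPM, the vitamin K-dependent carboxylase. None of these was called. The 1 of 6 that rose from riverine to benthic livers was vkorc1l1, a vitamin K epoxide reductase paralog, by 1.65 ± 0.35 (log2, SE, adjusted p = 0.015 by limma), in a comparison where 9.66% of all genes were called higher. It had 1.24 to 3.6 TPM in riverine, 4.57 to 6.91 in littoral and 5.20 to 10.6 TPM in benthic livers, so riverine livers did not overlap with the others. It was no longer called after median-of-ratios scaling (1.06, adjusted p = 0.061) or with the sequencing run as a covariate, where the change was 1.8 ± 0.68 (adjusted p = 0.21).

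Transcription factors and signalling genes that act on liver acute-phase genes were represented by 9 of 19 symbols. From riverine to benthic livers 2 rose, 1 fell and 6 did not pass the test, where 9.66% of all genes were called higher and 1.49% lower. From riverine to littoral livers 1 rose and 1 fell, against 0.998% and 0.459% of all genes, and between littoral and benthic livers 0 were called. At an unadjusted p under 0.05 the counts were 2 from riverine to littoral, 5 from riverine to benthic and 2 from littoral to benthic livers. Here too the share of all genes was not counted. The hepatocyte factors hnf4a, cebpa and foxa2 were not called in any comparison. From riverine to benthic livers foxa2 changed by -1.25 (adjusted p = 0.054 by limma), hnf4a by -0.33 and cebpa by 0.48.

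The gene stat3, the transcription factor of interleukin-6 signalling, had 16.2, 26.8, 27.7 and 20.9 TPM in riverine livers, below all others. It had 50.3, 37.4, 51.9 and 64.5 TPM in littoral and 65.4, 58.5, 49.0, 41.9 and 60.0 TPM in benthic livers. The change was 1.16 ± 0.26 from riverine to littoral (log2, SE, adjusted p = 0.046 by limma) and 1.27 ± 0.25 from riverine to benthic livers (adjusted p = 0.011). The riverine to littoral call was lost in 22 of 29 alternatives, 11 of which left out 1 liver. The 22 include an adjusted p under 0.01 and the rule of the study, which this call could not pass. Some of the 11 left out a benthic liver, where the change stayed at 1.16 and only its error and adjustment moved. After median-of-ratios scaling the riverine to benthic change was 0.67 (adjusted p = 0.17).

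C/EBP delta, encoded by cebpd and also an acute-phase transcription factor in mammals, had 515, 454, 447 and 303 TPM in riverine livers, above all others. It had 109 to 221 TPM in littoral and 178 to 254 TPM in benthic livers. The change was -1.52 ± 0.26 from riverine to littoral (log2, SE, adjusted p = 0.013 by limma) and -0.96 ± 0.25 from riverine to benthic livers (adjusted p = 0.029), and -1.57 in the latter after median-of-ratios scaling. The riverine to benthic call was lost without riverine 1 (adjusted p = 0.088), riverine 3 (0.071) or benthic 2 (0.076).

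The feedback inhibitor socs3 rose from riverine to benthic livers by 2.37 ± 0.67 (log2, SE, adjusted p = 0.040 by limma). It had 5.43, 43.8, 11.3 and 4.78 TPM in riverine and 36.6, 26.9, 28.7, 191.2 and 96.6 TPM in benthic livers, so that riverine 2 lay within the benthic range. The call was lost in 18 of 29 alternatives, among them each omission of 1 liver other than riverine 2, littoral 1, littoral 2, littoral 3 and benthic 3. The 18 include an adjusted p under 0.01, which this call could not pass. When the run was added as a covariate, so that littoral 1 alone ties the runs together, none of the riverine to benthic calls of stat3, cebpd and socs3 held, with adjusted p-values of 0.21, 0.11 and 0.28. The changes were then 1.28 ± 0.48, -1.54 ± 0.45 and 3.25 ± 1.37 (log2, SE), at least as far from 0 as without the covariate but with wider errors.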

How the data were processed

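Liver RNA of 13 wild-caught males was quantified by the authors with kallisto, after adapter trimming with Trim Galore, (tool names also in the submitters' processing notes) against the transcripts of the related cichlid Maylandia zebra (M_zebra_UMD2a). Longer reads had been trimmed to 100 bases, which the column names give for the 8 livers of the run with all benthic fish and not for the 5 of the other run, so read length before trimming differed by run. The deposited values are TPM per transcript with no scaling between libraries. The labels name ribosomal RNA depletion with a stranded kit, the study's methods poly(A) selection, and which was used is not settled here. Mapping to another species' transcripts can lower the level of diverged genes. TPM were summed by gene symbol, genes averaging 0.1 TPM or more were kept (21147), and log2(TPM + 0.1) was fitted for the 3 populations together with limma 3.58.1 (trend) in R 4.3.3. P-values were adjusted by the Benjamini-Hochberg method within each comparison, and a gene was called at an adjusted p under 0.05. The study's own test needs estimates of technical variance that TPM do not carry. The fit was also run on simulated data with independent errors for each gene. These held no effect of the run and no shift of all genes, so the simulation cannot show how the fit handles either. Each liver is a separate fish, and replicate numbers are only names.

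The 4 genes and all lists were chosen with earlier results of these data known. Named genes were the 4 found, the 5 most alike, and certain genes of the other clotting, processing and regulator lists. From those lists, genes called in any comparison or among the 3 most abundant of their list were named. Cell markers did not follow this rule, and not every called marker is named. plat, plau, pros1, il6st, the hepatocyte factors and the markers given with values were added after their values were seen. The fgb to fgg ratio was likewise chosen afterwards. Alternatives were other pseudocounts, filters, scalings, fits and call rules, the run as a covariate and leaving out livers. Bisulfite data were not analysed here. No sequence is shown because none was used here.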

Additional observations from a re-analysis of the deposited data

Results flagged for a closer look

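Within the populations, 15 groups of values (the 4 coagulation genes and the fgb to fgg ratio in 3 populations) were examined for a liver far from the others. By Dixon's criterion 3 had one. Chance would mark about 1 in 20 independent groups of normally distributed values. These groups share livers and the 4 genes rose and fell together, so the count cannot be compared with that rate. In littoral livers fgg was 7823 TPM in littoral 1, while the other 3 had 13971 to 15158 TPM. Littoral 1 was the only littoral liver of the run that held the riverine fish. In riverine livers f5 was 112.0 TPM in riverine 2, while the other 3 had 72.7 to 75.2 TPM. In benthic livers the ratio of fgb to fgg was 1.36 in benthic 5, while the other 4 had 0.85 to 0.99. Benthic 5 also had the highest leukocyte marker sum, 1831 TPM.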

How the results depend on the processing

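The count of coagulation genes called was 0 of 4 in each comparison under every alternative run (29, 29 and 30 for the riverine to littoral, riverine to benthic and littoral to benthic comparisons). Signs of small differences turned as follows, on the log2 scale. With median-of-ratios scaling fgb was -0.25 and fgg -0.23 from riverine to littoral, fgb was -0.58 from riverine to benthic, and stat3 was -0.10 from littoral to benthic livers. With quantile normalization f3 was -0.014 from riverine to littoral, and fgb was 0.070 and serpinc1 0.0099 from littoral to benthic livers. With the run as a covariate fgb was -0.70 and fgg -0.52 from riverine to littoral, and fgb was -1.09 from riverine to benthic livers. Without the 3 livers with kidney, islet or leukocyte markers (littoral 2, littoral 3 and benthic 5), chosen after seeing the data, fgb was -0.025 and fgg -0.047 from riverine to littoral, and fgb was 0.11, serpinc1 0.20 and stat3 -0.10 from littoral to benthic livers. With median-of-ratios scaling without these livers fgb was -0.025 and fgg -0.048 from riverine to littoral, fgb was -0.41 from riverine to benthic, and vkorc1l1 was -0.13 and stat3 -0.60 from littoral to benthic livers. The cause was not tested.

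Leaving out each liver in turn gave, from riverine to littoral, -0.036 to 0.41 for fgb, -0.17 to 0.13 for f5 and -0.25 to 0.056 for serpinc1. It gave -0.14 to 0.11 for fgb from riverine to benthic, and from littoral to benthic livers -0.39 to 0.058 for fgb, -0.24 to 0.074 for serpinc1 and -0.024 to 0.24 for stat3. For the other clotting genes the count called from riverine to benthic livers was 3, and it was 0 with the run as a covariate, 1 with quantile normalization, 1 at an adjusted p under 0.01, 1 (tfpi2) by the fold and level rule of the study and 5 without benthic 1. Over the alternatives the adjusted p of the riverine to benthic change ran from 0.0014 to 0.17 for tfpi2, 0.0099 to 0.17 for f3, 0.017 to 0.78 for vwf, 0.0081 to 0.21 for vkorc1l1, 0.0042 to 0.21 for stat3, 0.0077 to 0.11 for cebpd and 0.0087 to 0.28 for socs3. The lowest adjusted p of any of the 4 coagulation genes was 0.14, for f5 from riverine to benthic livers with median-of-ratios scaling. From littoral to benthic livers the count of other clotting genes called was 0, and it was 1 (tfpi2) with a minimum mean of 1 TPM, quantile normalization, a robust trend or without littoral 2. From riverine to littoral livers vkorc1l1 was called without riverine 2 (adjusted p = 0.046). Its riverine to benthic call was lost without riverine 4 (adjusted p = 0.0503).

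No paired analysis was possible because replicate numbers were given in accession order and pair no fish. A planned test of methylation at these genes and a motif search were not run. TPM carry no depth, so the precision of single values is unknown.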

Other observations

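Scaled by median of ratios, benthic 5 had 3599 TPM of fgg and 4878 TPM of fgb, against 7109 to 17672 and 6751 to 15917 TPM in the other 12 livers. The scaling factor of this liver was 1.61, the highest of the 13, where the others had 0.66 to 1.44. Benthic 5 also had the most genes above 0 TPM, 24012 against 19921 to 23774. Correlations between the 4 coagulation genes over the 13 livers were 0.89 to 0.94 after this scaling, against 0.77 to 0.88 before it. The ratio of serpinc1 to f5, which any scaling of a whole liver leaves as it is, was 10.4 ± 1.37 in riverine (SD, n = 4), 9.80 ± 0.99 in littoral (SD, n = 4) and 11.2 ± 2.30 in benthic livers (SD, n = 5).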
